A study of Homo sapiens with 6 samples.

Results

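The regions described here are the peaks of SF3B4 RNA immunoprecipitation whose midpoint lay between 53 and 96 Mb of human chromosome 13 (hg19, chr13:53000000-95999999), a stretch of 43 Mb in the long arm. It held 3892 of the 181131 peaks in the 4 deposited lists, and the rest of the chromosome held 3072. Members were chosen by the position of the midpoint alone, but the stretch itself was selected on the peak density of these lists. The densities and gaps below are therefore a description, without a test. By list, the members were 41 of 10960 peaks in the RIP-1 mRNA list, 46 of 10280 in the RIP-2 mRNA list, 347 of 25797 in the RIP-1 non-exon list and 3458 of 134094 in the RIP-2 non-exon list.

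All libraries came from wild-type HEK293T, an established line derived from human embryonic kidney and expressing SV40 large T antigen. The 6 libraries formed 3 groups of 2, namely Anti-SF3B4, IgG (a non-specific antibody) and Input (RNA before immunoprecipitation), with 1 library of each group in experiment RIP-1 and 1 in RIP-2. The authors deposited 1 set of peaks per experiment, in 2 files marked mRNA and NotExon, the latter called the non-exon list here. No read counts come with the lists, so depth is unknown, and each list is 1 experiment without a replicate error.

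SF3B4 belongs to the SF3b complex of the U2 small nuclear ribonucleoprotein, which recognises the branch site of an intron while the spliceosome assembles. RNA recovered with it can therefore be unspliced or partly spliced, and peaks outside exons can lie in introns as well as between genes. METTL16, which the title of the series names, methylates adenosine in RNA. Gene-poor stretches of human chromosomes typically hold few, long genes with long introns and wide spaces between them.

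The label of the stretch as gene-poor was checked by gene order. In RefSeq's order of genes (GRCh38.p14, used only for names and neighbours), 58 of 338 protein-coding genes of the chromosome lie from CKAP2, a mitotic spindle protein, to ABCC4, an efflux transporter. That is 17.2% of the genes. These bounding genes were set from general knowledge of the map, because no annotation of hg19 was used here. The stretch made up 44.9% of the span from the first to the last peak on the chromosome. Its genes include the protocadherins PCDH8, PCDH17, PCDH20 and PCDH9, which are adhesion proteins, and SLITRK1, SLITRK5 and SLITRK6, transmembrane proteins of neurons. The glypicans GPC5 and GPC6, heparan sulfate proteoglycans of the cell surface, the formin DIAPH3 and the ubiquitin ligase MYCBP2 also lie there. No peak is assigned to any of these genes below.

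The stretch was poor in mRNA-list peaks in both experiments, close to the rest of the chromosome for RIP-1 non-exon peaks, and crowded with RIP-2 non-exon peaks. The deposited false discovery rate was high, with no RIP-2 non-exon peak inside below 68.3%. For 95.1% of the RIP-1 non-exon peaks inside it was 100%. In the rest these values were 68.3% and 94.5%. The RIP-1 mRNA list had 0.953 peaks per Mb inside and 3.8 per Mb in the rest of chromosome 13. The RIP-2 mRNA list had 1.07 per Mb inside and 3.54 in the rest. Both mRNA lists were thus sparser inside, at 0.251 times (RIP-1) and 0.302 times (RIP-2) the density of the rest.

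In the RIP-1 non-exon list the density was 8.07 per Mb inside and 8.93 in the rest, a ratio of 0.904. In the RIP-2 non-exon list it was 80.4 per Mb inside and 41.8 in the rest, a ratio of 1.92. The stretch thus held 42.4% of the RIP-1 non-exon peaks of the chromosome (95% Wilson interval 39.0 to 45.8) but 61.0% of those of RIP-2 (59.7 to 62.2). The corresponding shares of the mRNA lists were 16.9% (12.7 to 22.2) in RIP-1 and 19.7% (15.1 to 25.3) in RIP-2. The intervals here and below reflect counting error alone and take each peak as independent. With only the flank before the stretch as the rest, the RIP-2 non-exon ratio was 1.67, and with only the flank after it 2.62. With the flank after it, the RIP-1 non-exon ratio turned to 1.15 and the RIP-2 mRNA ratio was 0.552, so the RIP-1 non-exon list was sparser inside only against the flank before or both flanks.

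**Figure D1:**
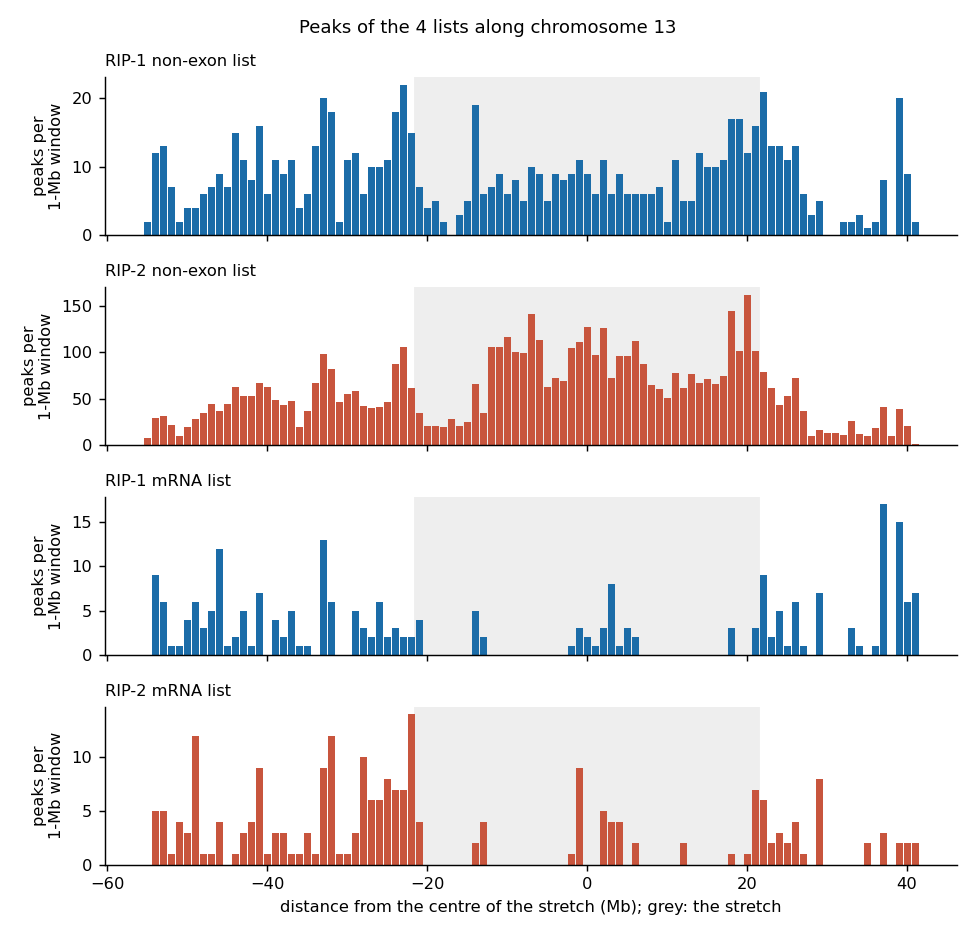
Number of peaks in each window of 1 Mb along chromosome 13 (vertical axes, 1 panel per list) against the distance of the window from the centre of the stretch in Mb (horizontal axis); the grey band marks the stretch. The RIP-2 non-exon list reaches 162 peaks in a window inside, while both mRNA lists leave most windows inside empty.

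Relative to RIP-1, the RIP-2 non-exon list was longer by a larger factor inside than in the rest of chromosome 13 or over the whole lists. Other stretches of this size were not compared. RIP-2 had 9.97 non-exon peaks for each RIP-1 non-exon peak inside the stretch, 4.69 in the rest of chromosome 13 and 5.2 over the whole lists. Across the 23 chromosomes other than Y, this factor ran from 2.64 on chromosome 19 to 6.08 on chromosome 1 and 6.92 on chromosome 13 itself. The same factor for the mRNA lists was 1.12 inside and 0.930 in the rest. Inside, RIP-1 had 8.46 non-exon peaks for each mRNA-list peak and RIP-2 had 75.2, against 2.35 and 11.8 in the rest.

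In windows of 1 Mb, the 43 windows inside held between 19 and 162 RIP-2 non-exon peaks with a median of 76.0. The 54 windows of the rest had a median of 41.0 and a maximum of 106. The first and the last of them are only partly within the span of the peaks and held 8 and 1, and the lowest of the others held 10. Of the windows inside, 22 reached 75 RIP-2 non-exon peaks, the 90th percentile of 2902 windows of the genome, and 5 windows of the rest did. RIP-1 non-exon peaks numbered 0 to 19 per window inside (median 7) and 0 to 22 in the rest (median 8.50). The 90th percentile of the genome in RIP-1, which was 17.0, was reached by 3 windows inside and by 6 of the rest.

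The crowding was uneven within the stretch and did not start at its edge. From 53 to 60 Mb the RIP-2 non-exon list had 24.1 peaks per Mb, below its value in the rest of the chromosome, and RIP-1 had 3.71. From 60 to 70 Mb RIP-2 had 94.3 and RIP-1 8.40. From 70 to 80 Mb the values were 97.0 and 8.40, and from 80 to 90 Mb 72.8 and 7. The last part, from 90 to 96 Mb, was densest in both experiments, with 108 per Mb in RIP-2 and 13.8 in RIP-1. RIP-2 non-exon peaks outnumbered those of RIP-1 by 11.2 and 11.5 times between 60 and 80 Mb, but by 6.50 times before 60 Mb and 7.81 times after 90 Mb.

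The window with the most RIP-2 non-exon peaks was 94 to 95 Mb with 162, followed by 92 to 93 Mb with 144 and 67 to 68 Mb with 141. RIP-1 had 12, 17 and 10 non-exon peaks in these windows. The RIP-1 non-exon list was instead densest from 60 to 61 Mb with 19 peaks, where RIP-2 had 66, and had 17 peaks each from 92 to 93 Mb and from 93 to 94 Mb. Across the 43 windows, Spearman's rho between the non-exon counts of the experiments was 0.586 and Pearson's r 0.538. In the 54 windows of the rest, with those at both ends included, rho was 0.827 and r 0.852. These correlations are descriptions, since neighbouring windows resemble each other and all windows of a list share its libraries.

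At the scale of 100 kb, 14 of 430 windows inside had no RIP-2 non-exon peak, while 204 had no RIP-1 non-exon peak. The densest for RIP-2 were chr13:74300001-74400000 and chr13:94000001-94100000 with 23 peaks each, then chr13:94200001-94300000 with 21, tied with 1 other window. RIP-1 had 1, 2 and 1 non-exon peaks in them, and no mRNA-list peak of either experiment lay there. For RIP-1 the densest was chr13:60500001-60600000 with 9 non-exon peaks, where RIP-2 also had 9. The next had 6 RIP-1 peaks each, at chr13:60400001-60500000 and chr13:95700001-95800000, where RIP-2 had 5 and 12. Thus the densest places of the experiments at this scale were different ones.

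Long runs of the stretch carried non-exon peaks without any mRNA-list peak. In 27 of the 43 windows neither mRNA list had a peak. From 62 to 72 Mb, 10 windows in a row had no mRNA-list peak but 983 RIP-2 non-exon peaks, between 62 and 141 per window, and 76 RIP-1 non-exon peaks, between 5 and 10 per window. From 81 to 86 Mb the counts were 341 in RIP-2 and 32 in RIP-1, and from 87 to 92 Mb 354 and 48. The run from 54 to 60 Mb was sparse in both, with 134 RIP-2 and 19 RIP-1 non-exon peaks. Over these 4 runs the density of RIP-2 non-exon peaks ranged from 22.3 to 98.3 per Mb.

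**Figure D2:**
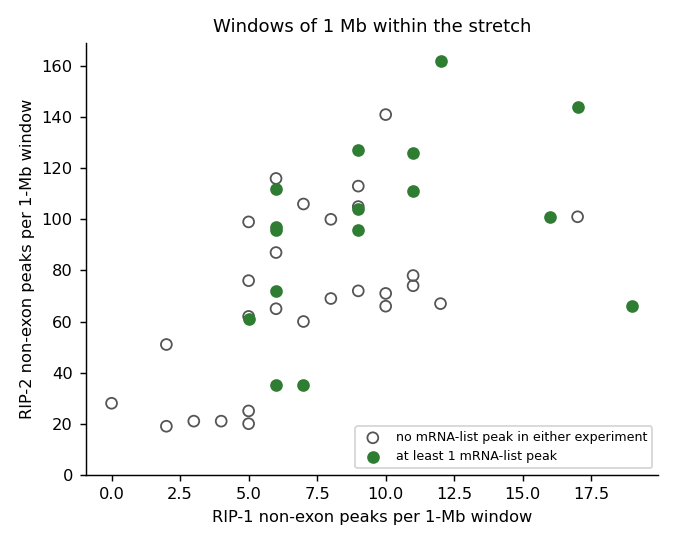
RIP-2 against RIP-1 non-exon peaks in each of the 43 windows of 1 Mb inside the stretch; filled points are the 16 windows with at least 1 mRNA-list peak and open points the 27 windows with none. The open points run from 19 to 141 RIP-2 peaks and overlap the filled points, which run from 35 to 162.

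Windows with at least 1 mRNA-list peak held a median of 99.0 RIP-2 non-exon peaks (range 35 to 162), against 71.0 (range 19 to 141) in windows with none. For RIP-1 the medians were 9 (range 5 to 19) and 7 (range 0 to 17). The ranges of the 2 kinds of window overlapped in both experiments.

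Non-exon peaks of the stretch lay far from mRNA-list peaks of the same call. The median distance to the nearest one was 860.2 kb for RIP-1 peaks and 808 kb for those of RIP-2, against 71.6 kb and 119 kb in the rest of the chromosome. A distance of more than 1 Mb was found for 47.6% of non-exon peaks inside in RIP-1 and for 44.2% in RIP-2. In the rest these shares were 0.212% (1 of 472 peaks) and 2.62%, and over the whole lists 7.72% and 8.54%. Within 10 kb of an mRNA-list peak lay 14 of 347 RIP-1 peaks (4.03%, 2.42 to 6.66) and 70 of 3458 RIP-2 peaks (2.02%, 1.61 to 2.55). In the rest these shares were 12.5% (9.82 to 15.8) and 7.14% (6.14 to 8.29). The sparse mRNA lists of the stretch set these distances in part, by construction.

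The mRNA-list peaks, which carry a strand, are called segments here. When segments of either experiment up to 200 kb apart were joined, a distance chosen after the positions were seen, the 87 segments formed 22 places. Segments of both experiments lay in 12 of them, of RIP-1 only in 6 and of RIP-2 only in 4. The 12 places held 32 of the 41 RIP-1 segments and 41 of the 46 RIP-2 segments. With joining distances of 100 kb and 50 kb, 11 of 29 and 11 of 41 places held both. Joining over a longer distance raises such counts by construction.

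The fullest places held 12 segments each. At chr13:73282626-73573133 there were 3 RIP-1 and 9 RIP-2 segments, of which 8 were on the plus and 4 on the minus strand. At chr13:77526623-77798667 there were 8 RIP-1 and 4 RIP-2 segments, 11 of them on the minus strand. RIP-1 scores there ran from 53.4 to 196 and RIP-2 scores from 54.9 to 58.0. The score is the authors' own, on the scale of MACS (negative log10 of p, multiplied by 10), and is used here to rank peaks within a list. At chr13:60498908-60616954 all 7 segments, 5 of RIP-1 and 2 of RIP-2, were on the minus strand. At chr13:61041371-61147909 all 5, 2 and 3, were on the plus strand. In chr13:95673678-95953700 all 6 segments, 2 of RIP-1 and 4 of RIP-2, were again on the minus strand. The other places with 5 or more segments held both strands. At chr13:76099565-76445316, 6 segments were on the plus and 2 on the minus strand. These numbers were 3 and 4 at chr13:53008927-53227093, and 4 and 1 at chr13:78130730-78472469. Over the stretch, 14 of 41 RIP-1 (34.1%) and 24 of 46 RIP-2 segments (52.2%) were on the plus strand. In RIP-1 this share was 53.2% in the rest and 51.2% over the whole list, and in RIP-2 54.5% and 51.8%. Segments of a place often lay on the same strand, so they do not count as independent.

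The windows with mRNA-list peaks were often the same in both experiments. Across the 43 windows, rho was 0.774 and r 0.637 between the experiments, and 29 (RIP-1) and 30 (RIP-2) windows were empty. Of these, 27 were empty in both lists, and such windows count towards the correlation. In the 54 windows of the rest, rho was 0.625 and r 0.351. Inside, the windows fullest in RIP-1 were 77 to 78 Mb with 8 peaks, 60 to 61 Mb with 5 and 53 to 54 Mb with 4. RIP-2 had 4, 2 and 4 there. Those fullest in RIP-2 were 73 to 74 Mb with 9, 95 to 96 Mb with 7 and 76 to 77 Mb with 5, where RIP-1 had 3 in each.

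Among the mRNA-list peaks of RIP-1, the first by score, chr13:53216540-53217919 on the plus strand, scored 2596. It lay in a place where RIP-2 scores ran from 58.8 to 69.9. The second, chr13:79173229-79176248 on the minus strand, scored 1411 in a place without a RIP-2 segment. The third, chr13:60498908-60499004 on the minus strand, scored 301. The RIP-2 maximum inside was 270.0, at chr13:78167648-78167708 on the plus strand, followed by 227 at chr13:73401147-73401256 and 206 at chr13:60544985-60545294. Medians inside were 83.5 in RIP-1 (quartiles 58.5 and 154) and 67.8 in RIP-2 (58.2 and 104). In the rest they were 78.2 (58.6 and 107) and 81.1 (61.6 and 107). The quartiles of inside and rest overlapped in both experiments.

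Widths of mRNA-list segments inside and in the rest overlapped over most of their range. The median was 191 bp inside in RIP-1 (10th to 90th percentile 96 to 746) and 168 bp in the rest (79.0 to 837). In RIP-2 it was 189.5 bp inside (80 to 417) and 155 bp in the rest (77.6 to 638). The widest RIP-1 segments inside were the second by score with 3019 bp, chr13:73282626-73284483 with 1857 bp and the first by score with 1379 bp. In RIP-2 they were chr13:80126650-80127928 of 1278 bp, chr13:61986283-61987240 of 957 bp and chr13:72013280-72014158 of 878 bp. All mRNA-list members together covered 14.7 kb (RIP-1) and 11.6 kb (RIP-2).

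Non-exon peaks differed from the rest of the chromosome in width by small amounts and in opposite directions. The RIP-1 median was 659 bp inside (10th to 90th percentile 437 to 1269) and 726 bp in the rest (470.0 to 1433). The RIP-2 median was 597 bp inside (368 to 1007) and 574 bp in the rest (321 to 1018). Peaks of 1 kb or more made up 18.2% (14.5 to 22.6) of the RIP-1 peaks inside and 23.9% (20.3 to 28.0) in the rest. In RIP-2 these shares were 10.2% (9.27 to 11.3) and 10.3% (9.11 to 11.6). The density of RIP-2 peaks inside was 1.92 times that of the rest, while their median width was 1.04 times that of the rest. Together they covered 5.37% of the stretch in RIP-2 and 0.632% in RIP-1, against 2.76% and 0.777% of the rest.

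**Figure D3:**
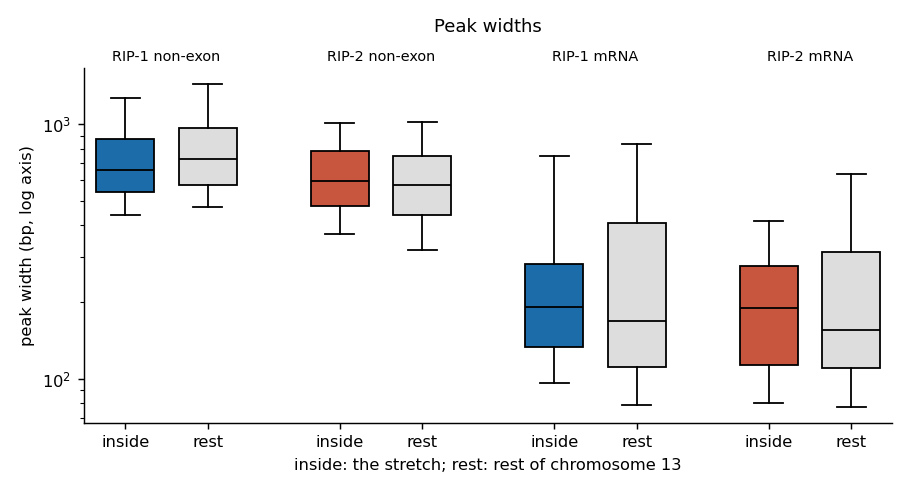
Peak widths in bp on a log axis for the 4 lists, inside the stretch (coloured) and in the rest of chromosome 13 (grey); boxes span the quartiles with the median as a line, and whiskers the 10th and 90th percentiles. The RIP-2 non-exon boxes, with medians of 597 and 574 bp, nearly coincide.

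The widest RIP-1 non-exon peaks inside were chr13:77769272-77771936 of 2665 bp, chr13:60538393-60540959 of 2567 bp and chr13:75943705-75946058 of 2354 bp. They scored 70.8, 50.7 and 56.4, around the median of 64.3 of the list inside or below it. The widest RIP-2 peak was chr13:73469967-73476039 of 6073 bp with a score of 126, followed by chr13:77881895-77884848 of 2954 bp and chr13:76004033-76006949 of 2917 bp.

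Spacing is the gap from the end of a peak to the start of the next in the same list. RIP-2 non-exon peaks lay closer together inside, with a median gap of 6.57 kb (quartiles 2.51 and 14.4), against 10.2 kb (3.38 and 26.1) in the rest. Gaps under 5 kb made up 41.6% (40.0 to 43.3) inside and 32.3% (30.4 to 34.3) in the rest, and gaps under 1 kb 11.7% (10.7 to 12.8) and 9.41% (8.26 to 10.7). Chains of 3 or more peaks with gaps under 1 kb numbered 53 inside, among 3457 gaps, and 19 in the rest, among 2210 gaps. The longest had 6 and 4 peaks. Peaks that lie more densely have shorter gaps and form more such chains by construction. The gaps and their intervals are therefore not a result separate from the density on which the stretch was selected.

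RIP-1 non-exon peaks showed the opposite order, with a median gap of 74.8 kb inside (28.8 and 169.8) and 47.2 kb in the rest (14.9 and 123). Their gaps varied less inside, with a coefficient of variation of 1.24 against 1.79 in the rest. No chain of 3 or more was found in RIP-1 on either side. In the mRNA lists the median gap inside was 131 kb in RIP-1 (20.1 and 825) and 89.8 kb in RIP-2 (14.0 and 599.7), against 59.6 kb (8.83 and 261) and 66.9 kb (9.10 and 311) in the rest. The quartiles overlapped in each list.

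**Figure D4:**
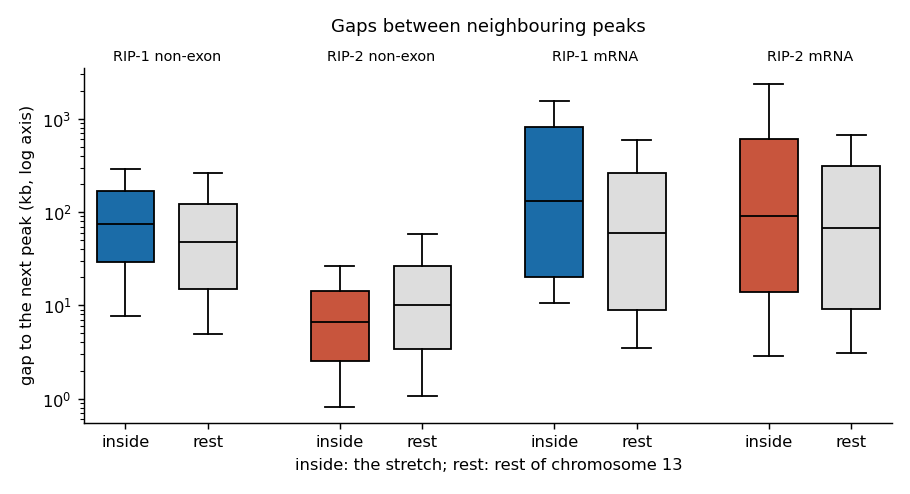
Gaps between neighbouring peaks of the same list in kb on a log axis, inside the stretch (coloured) and in the rest of chromosome 13 (grey); boxes span the quartiles with the median as a line, and whiskers the 10th and 90th percentiles. The RIP-2 non-exon gaps are shorter inside, with a median of 6.57 against 10.2 kb, while the RIP-1 non-exon gaps are longer, with 74.8 against 47.2 kb.

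The longest gaps of the mRNA lists spanned many Mb that held non-exon peaks. In RIP-1 the longest ran from 80913794 to 92050872 (11.1 Mb) and contained 774 RIP-2 and 87 RIP-1 non-exon peaks. The next ran from 61084889 to 72131155 (11.0 Mb) with 1025 and 81, and the third from 53227093 to 60498908 (7.27 Mb) with 189 and 31. In RIP-2 the longest ran from 61987240 to 72013280 (10 Mb) with 984 RIP-2 and 76 RIP-1 non-exon peaks, followed by 6.92 Mb from 53624395 and 6.24 Mb from 80127928. The 2 experiments thus left largely the same parts of the stretch without mRNA-list peaks.

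Gaps of the non-exon lists were shorter. The longest in RIP-1 was 1.76 Mb, from 56343538 to 58105272, and held 45 RIP-2 non-exon peaks. The next 2 were 0.677 Mb from 71265384 and 0.637 Mb from 82747652, with 49 and 39 RIP-2 non-exon peaks. The longest in RIP-2 was 0.321 Mb, from 57223851 to 57545304, followed by 0.252 Mb from 61720788 and 0.244 Mb from 59057412, and these held 0, 1 and 1 RIP-1 non-exon peaks.

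The series describes its 2 experiments as compared with each other, which the overlap of the lists addresses. A peak was counted as shared when it overlapped a peak of the same kind of list in the other experiment over 1 bp or more, with strands matched in the mRNA lists. In the mRNA lists, 2 of 41 RIP-1 peaks inside were shared (4.88%, 1.35 to 16.1), against 6.41% of the whole RIP-1 list and 12 of 201 in the rest of chromosome 13 (5.97%, 3.45 to 10.1). Of the RIP-2 peaks, 2 of 46 were shared (4.35%, 1.20 to 14.5), against 6.91% of the whole list and 12 of 187 in the rest (6.42%, 3.71 to 10.9). With 2 pairs, a difference from the rest was not detectable.

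The first pair was chr13:53024065-53024359 in RIP-1 (score 53.4) and chr13:53024065-53024379 in RIP-2 (score 69.9), on the minus strand with the same start. The second was chr13:60544985-60545294 on the minus strand, where both experiments gave identical edges. It scored 58.4 in the RIP-1 list and 206 in the RIP-2 list. The RIP-1 scores of both pairs lay below the lower quartile of the list inside, 58.5. Among all mRNA-list members, 21 of 41 RIP-1 segments had a RIP-2 segment on the same strand within 50 kb (51.2%, 36.5 to 65.7). In the rest, 89 of 201 had one within 50 kb (44.3%, 37.6 to 51.2). Seen from RIP-2, 18 of 46 inside (39.1%, 26.4 to 53.5) and 50.8% in the rest (43.7 to 57.9) had one, so the order was the opposite and the intervals overlapped. Within 10 kb the share was lower inside for both, at 14.6% (6.88 to 28.4) against 20.9% (15.8 to 27.0) for RIP-1 and 15.2% (7.57 to 28.2) against 24.6% (19.0 to 31.2) for RIP-2, again with overlapping intervals. Overlap of an mRNA-list peak with a non-exon peak of the other experiment was rare in the whole lists, at 18 of 10960 in RIP-1 and 22 of 10280 in RIP-2. Inside it was found for 0 of 41 and 0 of 46, and in the rest for 1 of 201 and 0 of 187.

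In the non-exon lists, 76 of 347 RIP-1 peaks inside were shared with RIP-2 (21.9%, 17.9 to 26.5), against 18.1% of the whole list and 89 of 472 in the rest of chromosome 13 (18.9%, 15.6 to 22.6). The intervals of inside and rest overlapped. RIP-2 peaks covered 5.37% of the stretch but 2.76% of the rest, so the share of RIP-1 peaks found again differed less than the covered share did. Like measures can be set side by side by taking RIP-1 midpoints, of which 19.0% inside (15.2 to 23.5) lay in a RIP-2 peak, 3.54 times the covered share. In the rest this was 14.6% (11.7 to 18.1), 5.29 times the covered share. These factors are ratios of 2 measured shares and not a chance level.

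Seen from RIP-2, 78 of 3458 non-exon peaks inside overlapped a RIP-1 peak (2.26%, 1.81 to 2.81), against 3.63% of the whole list and 92 of 2212 in the rest (4.16%, 3.40 to 5.07). These intervals did not overlap, but they take each peak as independent. The share divides by the number of RIP-2 peaks, and the stretch was selected on peak density. The intervals therefore do not serve as a test of a difference. RIP-1 peaks covered 0.632% of the stretch and 0.777% of the rest. No RIP-1 partner was found for 3380 of the 3458 RIP-2 peaks inside. Shares along the stretch were 15.4% of RIP-1 peaks from 53 to 60 Mb (6.15 to 33.5), 23.8% from 60 to 70 Mb (16.0 to 33.9), 17.9% from 70 to 80 Mb (11.1 to 27.4), 24.3% from 80 to 90 Mb (15.8 to 35.5) and 24.1% from 90 to 96 Mb (16.2 to 34.3), with intervals that all overlapped.

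**Figure D5:**
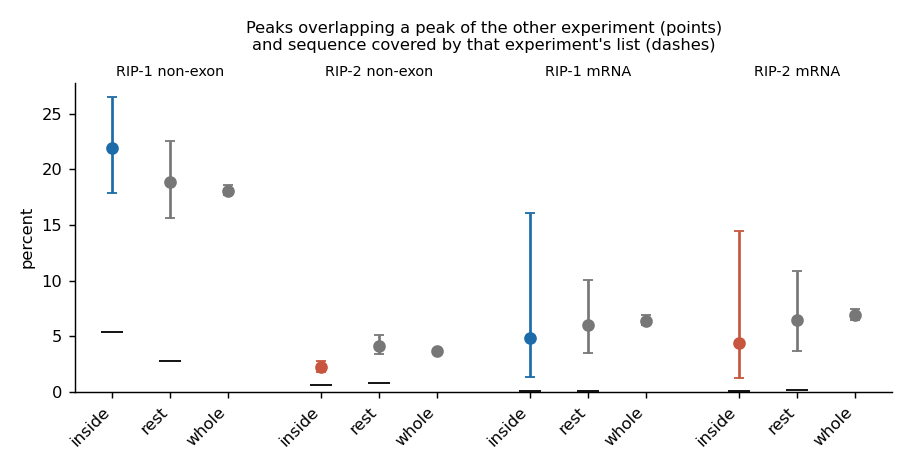
Percent of the peaks of each list that overlap a peak of the other experiment (points, with 95% Wilson intervals) inside the stretch, in the rest of chromosome 13 and over the whole list; black dashes give the percent of sequence that the other experiment's list covers, inside and in the rest. For RIP-1 non-exon peaks the covered share is 5.37% inside and 2.76% in the rest, while the shared percent is 21.9 and 18.9.

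How many RIP-1 peaks were found again depended on how many RIP-2 peaks were kept. When only as many of the strongest RIP-2 peaks were kept as the RIP-1 non-exon list holds, 739 of them lay in the stretch. Then 18 of 347 RIP-1 peaks inside were shared (5.19%), and 23 of 472 in the rest (4.87%). With an overlap of 50% or more required of each peak, 55 of 347 inside (15.9%) and 59 of 472 in the rest (12.5%) were shared.

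The 78 overlapping non-exon pairs inside shared a median of 518 bp (quartiles 359 and 681), which was 57.2% of the length that the 2 peaks of a pair covered together (42.0 and 72.9). In the 93 pairs of the rest these were 584 bp and 51.8% (40.3 and 67.3). The median distance of midpoints was 132 bp inside and 219.5 bp in the rest. Both edges lay within 50 bp of each other in 5 pairs inside and in 0 of the rest, and 0 pairs on either side had identical edges. This differs from the mRNA lists, where 1 of 2 pairs inside and 9 of 12 in the rest had the same start and end. How the edges of the mRNA lists were set is not given. The difference therefore cannot be read as better agreement of the mRNA lists.

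The closest pair by overlap was chr13:81296717-81297307 in RIP-1 and chr13:81296710-81297306 in RIP-2, which shared 98.7% of their joint length. Its fold enrichment, a value deposited by the authors that compares a peak with the control, was 9.95 for the RIP-1 peak and 9.64 for its partner. Next came the RIP-1 peaks chr13:65997481-65998139 (93.7%), chr13:92936910-92938707 (93%), chr13:71001159-71001716 (90.5%) and chr13:85412339-85412780 (88.4%). Ranked by the lower fold enrichment of the 2 experiments, the first was chr13:63758098-63758523 with 10.7 for the RIP-1 peak and 14.0 for its partner. It was followed by chr13:87256105-87256629 (11.8 and 10.6), the pair at 81296717 above, chr13:83830768-83831590 (11.6 and 9.64) and chr13:90095310-90095941 (9.53 and 11.6). These 5 pairs lay in windows of 1 Mb without an mRNA-list peak in either experiment, as 27 of the 43 windows inside were. Those 27 windows held a mean of 7.11 RIP-1 and 70.9 RIP-2 non-exon peaks, against 9.69 and 96.6 in the other 16. Whether strong pairs favour such windows was not tested.

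A stronger peak in one experiment was not clearly matched by a stronger one in the other. Across the 78 pairs, rho between the fold enrichments of the experiments was 0.121 and r on log10 values 0.133, and rho between the scores was -0.0989. In the 93 pairs of the rest these were 0.0821, 0.123 and 0.112. Weak agreement was thus not particular to the stretch. Shared RIP-1 peaks inside had a median score of 69.5 (quartiles 57.0 and 94.2) and unshared ones 62.6 (56.0 and 76.2). Their median widths were 730.0 bp (592 and 961) and 655 bp (524 and 852). In RIP-2 the median scores were 90.2 (76.4 and 123) for shared and 82.8 (63.0 and 119) for unshared peaks, and the median widths 656 bp (518 and 794) and 596 bp (477 and 780.0). In the rest, the median scores of shared and unshared peaks were 66.3 and 66.5 in RIP-1, and 84.9 and 81.9 in RIP-2. The median widths there were 896 and 688 bp in RIP-1, and 696 and 570.0 bp in RIP-2. A wider peak meets others more often by its width alone, and the quartiles overlapped throughout.

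Peak strength inside resembled that of the rest in both non-exon lists. The median fold enrichment was 6.63 inside in RIP-1 (quartiles 5.56 and 7.72) and 6.62 in the rest (5.48 and 7.87). In RIP-2 it was 8.19 on both sides, with an upper quartile of 10.1 inside and 9.64 in the rest and a 90th percentile of 13 against 11.7. Fold enrichment took repeated values. In RIP-2 the 5 commonest, 7.71, 8.67, 8.19, 9.64 and 9.15, accounted for 27.4% of the peaks inside. Median scores were 64.3 inside and 66.5 in the rest for RIP-1, and 82.9 and 82.0 for RIP-2.

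The strongest RIP-1 non-exon peak inside, by score and by fold enrichment, was chr13:82263920-82264991, with a score of 834, a fold enrichment of 14.3 and a false discovery rate (FDR) of 4.36%. It was the only 1 of the 347 with an FDR of 5% or less, against 0.678% of the whole RIP-1 list. The next by score were chr13:66361601-66363160 with 328 and chr13:64450893-64451163 with 226, and the second by fold enrichment was chr13:85481336-85482212 with 14.1. All lay where neither mRNA list had a peak in the window of 1 Mb, which was so for 27 of the 43 windows inside. Those 27 windows held a mean of 7.11 RIP-1 non-exon peaks, against 9.69 in the other 16. Whether peak strength goes with windows that lack mRNA-list peaks was not tested.

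In RIP-2 the strongest by both measures was chr13:62688715-62689603, with a score of 686 and a fold enrichment of 36.6. By score it was followed by chr13:85173388-85174019 with 647 and chr13:94030898-94031978 with 594. By fold enrichment it was followed by chr13:81804217-81804889 with 31.3 and chr13:90841851-90842625 with 29.4. Each of these had an FDR of 100%, and no RIP-2 peak inside was below 68.3%. Of the peaks named here, chr13:94030898-94031978 lay in a window of 1 Mb with 1 RIP-2 mRNA-list peak. The others lay in windows without an mRNA-list peak in either experiment. The deposited FDR was 100% for 43.5% of the RIP-2 peaks inside and 42.9% in the rest, and for 95.1% and 94.5% of the RIP-1 peaks. The lowest FDR of the whole RIP-2 list was also 68.3%, with 0 of its 134094 peaks at 5% or less, so the FDR did not set the stretch apart.

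The borders of the stretch are round positions. The last RIP-2 non-exon peak before it, chr13:52958756-52959050, scored 115 and the first inside, chr13:53044316-53045109, 96.1. The last inside, chr13:95996290-95997000, scored 107 and the next one outside, chr13:96003749-96004128, 70.4. In RIP-1 the non-exon peaks at the borders scored 63.4 outside and 57.1 inside at the start, and 62.0 inside and 107 outside at the end. For the mRNA lists the scores at the start were 61.2 outside and 53.4 inside in RIP-1, and 143 and 59.1 in RIP-2. At the end they were 88.5 inside and 97.6 outside in RIP-1, and 57.4 and 109.6 in RIP-2.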

How the data were processed

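Per the labels' protocols, RNA was immunoprecipitated with a commercial kit, ribosomal RNA was removed, and paired-end reads of 150 bp were sequenced. Per the submitters' processing notes, cutadapt 1.9.3, HISAT2 2.0.4 and hg19 were used. Peak names carry the prefix of MACS, per the deposited files. Not given in the sources used here: its version and settings, which library (IgG or input) was the control, and how the 2 kinds of list were defined.

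The deposited lists give a score per peak (behaving as 10 times the negative log10 of p, from 50 upward). The deposited non-exon lists add the length, the fold enrichment ratio over the control and the FDR in percent. Without headers, these were identified from values and column order. Non-exon positions count from 1. Positions in the mRNA lists may be off by 1 bp, as nothing states whether they count from 0.

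Each peak was placed by its midpoint. The rest of chromosome 13 runs from the first to the last peak of any list and excludes the stretch. Densities, quantiles, gaps and overlaps were computed with Python 3.11.15, pandas 2.3.3 and scipy 1.17.1, and interval functions were tested on simulated data. Shares have 95% Wilson intervals. No test was run, because each list is 1 experiment and peaks are not replicates. Members and comparisons were chosen with earlier results of these data known. Peaks were named by rank: per list the 3 highest scores, fold enrichments, widths, gaps and windows, plus the peaks at both borders, both mRNA-list pairs and the 5 first non-exon pairs by overlap and by fold enrichment. All places with 5 or more mRNA-list segments were also named. Gene assignment and sequence, which need hg19, were not analysed here.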

Additional observations from a re-analysis of the deposited data

How the results depend on the processing

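Of 59 alternative values, 51 stayed within the main value's interval (or within 1.5 times a count), and 8 moved outside it. For densities and shares this was a 95% Wilson interval. For ratios of widths and gaps it joined the extremes of the 95% intervals of both medians, which is wider. It ran from 0.267 to 12.3 for the gaps of the RIP-1 mRNA list, so staying within it says little there. All these intervals take each peak as independent. Against the flank after the stretch, the density ratio was 1.15 in the RIP-1 non-exon list (main 0.904), 0.552 in the RIP-2 mRNA list (main 0.302) and 2.62 in the RIP-2 non-exon list (main 1.92). Against the flank before it, the last was 1.67. For the upper 50% of peaks by score, the width ratio of the RIP-2 non-exon list was 1.10 (main 1.04), and 0 of 22 RIP-1 mRNA-list peaks were shared. Sharing of RIP-1 non-exon peaks was 15.9% with 50% of each peak required to overlap and 5.19% with the strongest RIP-2 peaks only. That last alternative leaves the mRNA lists as they are by construction, since the RIP-2 list is the shorter one. No paired analysis was possible because the peaks of an experiment carry no measurement of its individual libraries. Leaving out an experiment leaves no overlap to compare. The joining distances of 100 kb and 50 kb were added after the data were seen. Because depth is unknown, numbers of peaks cannot be set at equal depth between the experiments.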
